A study of Mus musculus with 2 samples.

Results

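The genes described here are 32 glycolysis and hypoxia response genes, taken by symbol from the 53715 genes of the deposited tables. Glucose carriers, glycolytic enzymes, lactate dehydrogenases and lactate carriers made up 21 of them (the glycolysis members). The other 11 were pyruvate dehydrogenase kinases, oxygen sensors and further targets of the hypoxia-inducible factor (the hypoxia members). They were measured by single-cell RNA-seq in cells sorted by flow cytometry as CD45.2+CD3-NKp46+ from CT26_b2m-/- tumours. CT26 is a mouse colon carcinoma line, and without B2m a cell cannot carry MHC class I on its surface. Tumours of 1 group had received IL-15SA and those of the other IL-15SA+IL-21Fc, called the combination below, and all of them carried the B2m deletion. The sample titles were followed, although the series title names IL-21 rather than IL-15 as the agent given alone. Cells of a treatment were pooled into 1 library, so each group is 1 sample. The sources used here do not state doses, times, mouse age or the number of animals, and neither group was untreated.

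Glycolysis turns glucose into pyruvate and yields ATP without oxygen. Lactate dehydrogenase then reduces pyruvate to lactate, which leaves the cell through monocarboxylate carriers. When oxygen is low, prolyl hydroxylases no longer mark the hypoxia-inducible factor for breakdown, and it raises many glycolysis genes and other targets through short DNA elements. In natural killer (NK) cells, IL-15 and other cytokines that activate the cell are known to raise glycolysis, which is used for interferon production and killing.

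Promoter stretches of 5 members are shown because the pathway is known to act on these genes through the core of the hypoxia response element, searched as ACGTG and GCGTG on both strands. They are the part of the bases before the first RefSeq transcript start in the table (GRCm38.p6) that holds such matches, written 5′ to 3′ on the gene's strand, with the matches in capitals. Ldha (chr7:46845649-46845784, plus strand), Bnip3 (chr7:138909527-138909633, minus strand) and Pdk1 (chr2:71873136-71873160, plus strand) were among the members lower in the combination library. Slc16a1 (chr3:104638454-104638544, plus strand) and Ddit4 (chr10:59951871-59951967, minus strand) differed little between the libraries.
Ldha: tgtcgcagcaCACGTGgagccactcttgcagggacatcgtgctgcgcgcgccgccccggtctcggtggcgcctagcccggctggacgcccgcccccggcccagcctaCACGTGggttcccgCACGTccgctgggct
Bnip3: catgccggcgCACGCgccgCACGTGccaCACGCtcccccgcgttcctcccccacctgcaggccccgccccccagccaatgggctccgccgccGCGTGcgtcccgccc
Pdk1: gcctacatggGCGTGtctttaacca
Slc16a1: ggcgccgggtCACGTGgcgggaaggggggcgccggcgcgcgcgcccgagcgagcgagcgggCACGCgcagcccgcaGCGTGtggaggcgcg
Ddit4: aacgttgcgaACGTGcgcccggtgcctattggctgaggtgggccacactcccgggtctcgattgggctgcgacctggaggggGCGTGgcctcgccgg

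Ldha and Bnip3 each held 5 matches, Slc16a1 held 4, Ddit4 held 2 and Pdk1 held 1. The run CACGTG reads as ACGTG on both strands and counts as 2 of them. Slc16a3 held 2 matches of ACGTG in the 37 bases before its start. Of the 30 members with a promoter in the table, 24 had at least 1 match in the 250 bases before the first start listed. That was 15 of 20 glycolysis members and 9 of 10 hypoxia members, while 38.6% of all 32851 promoters of the same length had one. The members' windows were richer in G and C, with a median of 63.4% against 52.4% over all windows. A match did not separate the members that were lower in the combination library, of which 7 of 9 had one, from the other members, of which 17 of 21 did. A match describes the letters only.

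The libraries held 8386 and 12435 barcodes with 30893388 and 35336180 unique transcript counts (UMIs), and 60 barcode sequences occurred in both. After removal of likely doublets, 7024 cells with IL-15SA and 9809 cells with the combination lay in NK clusters and had at least 1 UMI of Ncr1, the gene of NKp46. They are called Ncr1-positive cells, since innate lymphoid cells of type ILC1 also carry NKp46 and pass this sort. A further cluster was led by Lrp1, Cald1 and Col1a2. It had 14 of 18 tumour or stroma markers at least 5-fold above their median level over all clusters and is called tumour-like. It held 537 cells (6.74% of those kept) with IL-15SA and 1294 (10.96%) with the combination, although the gate was set on CD45.2 and NKp46. Ncr1 was at 514 and 353 CPM there (UMIs scaled to a total of 1000000 per class and library), against 1523 and 1644 in the Ncr1-positive cells. Clusters were made without the members. None of the 12 NK markers was at 0 in both libraries, in Ncr1-positive or in tumour-like cells, so detection does not separate these classes. Ncr1, by which the Ncr1-positive cells were chosen, is among these markers. The summed level of the 12 was 35968 CPM with IL-15SA and 32312 CPM with the combination in Ncr1-positive cells. In tumour-like cells it was 10962 and 6546 CPM. Median UMIs per Ncr1-positive cell were 3208.5 and 2435.

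Glycolysis genes took a smaller share of the transcripts of Ncr1-positive cells in the combination library, while the summed share of the hypoxia genes was nearly the same. The glycolysis members together held 0.685% of UMIs with IL-15SA and 0.546% with the combination, and the hypoxia members 0.0582% and 0.0572%. A member was compared where it reached 5 CPM in at least 1 library, which left 19 glycolysis and 10 hypoxia members. Pfkm, Ldhb and Egln3 stayed under it. In all, 7 glycolysis members (Pfkl, Pfkp, Tpi1, Eno1, Pkm, Ldha and Slc16a3) and 2 hypoxia members (Pdk1 and Bnip3) had a ratio, combination over IL-15SA, of 0.8 or less after 1 CPM was added to both levels, and are called lower. Of all 9189 genes over the same level, 4.4% were lower by this rule. None of the compared members was higher by the same factor, against 8.64% of all genes. With 1 sample per group no test of treatment was possible, and the 95% intervals given below cover counting error only.

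The median log2 ratio, combination over IL-15SA, was -0.30 over the glycolysis members, -0.10 over the hypoxia members and -0.0013 over all genes. It was below 0 for 18 of 19 glycolysis and 6 of 10 hypoxia members, as for 50.3% of all genes. Among the compared members, the counting interval lay wholly below 1 for 14 glycolysis and 5 hypoxia members (22.9% of all genes). It lay wholly above 1 for Bnip3l and Ddit4 (22.6% of all genes). A counting interval narrows with more UMIs, and these shares of all genes were not matched on level. When cells of the libraries were matched on UMIs per cell, 3 glycolysis members (Pfkl, Pfkp and Slc16a3) and both hypoxia members remained lower, against 2.79% of all genes, and none was higher (5.82% of all genes). The glycolysis median was then -0.21. Tumour or stroma markers also differed between these cells: their summed level was 148 CPM with IL-15SA and 247 CPM with the combination. Of the 18 markers, 17 were higher and none was at 0 in both libraries. A UMI of Col1a1, Col1a2, Col3a1, Dcn, Sparc or Saa3, only a part of this list, was found in 8.27% and 12.0% of cells. Without those cells, 8 glycolysis and 3 hypoxia members were lower, against 4.67% of all genes.

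**Figure D1:**
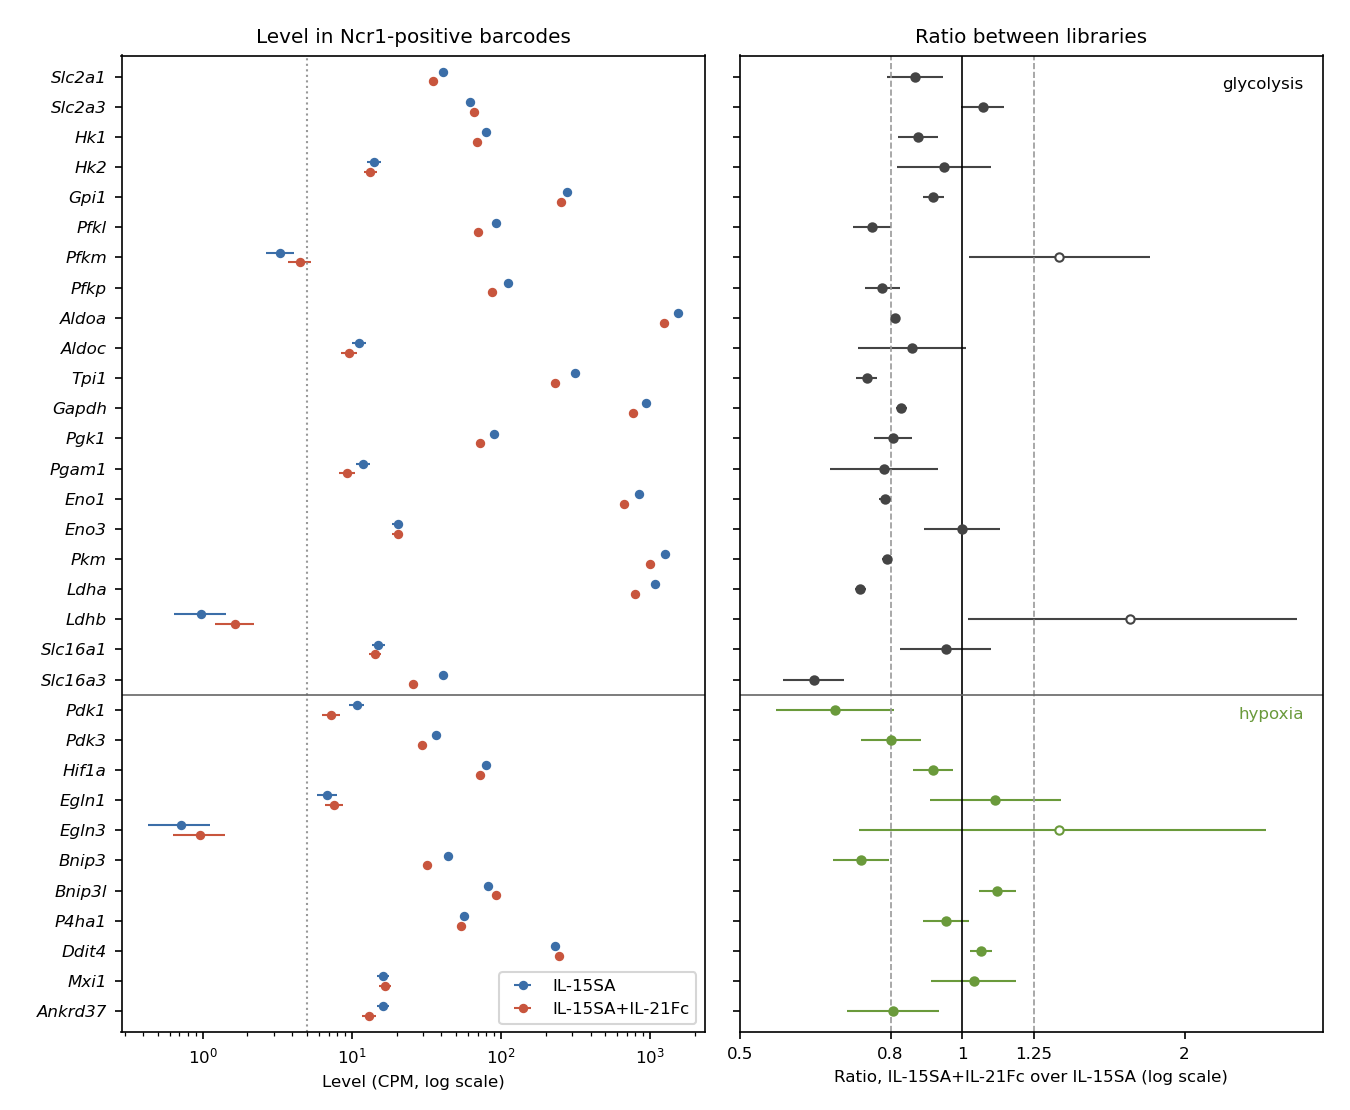
Left, level of each of the 32 members in Ncr1-positive cells of both libraries (CPM, log axis, dotted line at 5 CPM). Right, ratio of the combination over the IL-15SA library (log axis, dashed lines at 0.8 and at its inverse), with glycolysis members in grey and hypoxia members in green; whiskers are 95% counting intervals and open circles are members under 5 CPM. Slc16a3, Pdk1, Ldha, Bnip3 and Tpi1 lie furthest to the left. Slc2a3, Egln1, Bnip3l, Ddit4 and Mxi1 lie to the right of 1, as do Pfkm, Ldhb and Egln3, which are under 5 CPM. The intervals of Slc2a3, Egln1, Mxi1 and Egln3 include 1.

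Glucose enters through Slc2a1 and Slc2a3, and the carriers differed little between the libraries. Slc2a1 was at 40.9 CPM with IL-15SA and 35.3 CPM with the combination, a 1.16-fold lower level (1.06 to 1.26). Slc2a3, the high-affinity carrier, was at 62.0 and 66.0 CPM, with a ratio of 1.07 whose interval (0.996 to 1.14) included 1.

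Of the 8 members compared for the steps from glucose to the trioses, 3 were called lower, namely Pfkl, Pfkp and Tpi1. Hexokinases trap glucose in the cell by phosphorylating it: Hk1 was at 79.1 CPM with IL-15SA and 69.0 CPM with the combination, and Hk2 at 14.1 and 13.3 CPM, with an interval that included 1. Gpi1, the isomerase that follows, was at 278 and 254 CPM. Phosphofructokinase, the committed step, had 2 subunit genes over 5 CPM. Pfkl was at 93.2 and 70.5 CPM, 1.32-fold lower (1.247 to 1.405), and Pfkp at 112 and 87.4 CPM, 1.28-fold lower (1.22 to 1.35). Pfkm, the muscle subunit, had 88 and 125 UMIs, or 3.31 and 4.48 CPM. Its ratio was 1.35 (1.02 to 1.80), but it was under the 5 CPM needed for a call. Aldoa, which splits the sugar into trioses, was at 1534 and 1245 CPM, with a ratio of 0.811 and so just short of the threshold. Aldoc, its rarer isozyme, was at 11.2 and 9.60 CPM, and its interval included 1. Tpi1, which interconverts the trioses, was at 313 and 232 CPM, 1.35-fold lower (1.30 to 1.39).

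From the trioses to pyruvate, every member but Eno3 had an interval wholly below 1. Gapdh, which makes NADH, was at 936 CPM with IL-15SA and 775 CPM with the combination, 1.21-fold lower (1.19 to 1.23). Pgk1, the first ATP-yielding kinase, was at 90.6 and 73.0 CPM, 1.24-fold lower (1.17 to 1.32). Pgam1, the mutase between Pgk1 and enolase, was at 11.9 and 9.35 CPM, 1.28-fold lower (1.08 to 1.51), which fell short of the threshold once 1 CPM was added. These 3 lay just outside it, with log2 ratios of -0.27, -0.31 and -0.32. Eno1, the main enolase, was at 848 and 666 CPM, 1.27-fold lower (1.248 to 1.298). Eno3, known as the muscle enolase, was at 20.4 CPM in both libraries. Pkm, the pyruvate kinase that makes the final ATP, was at 1263 and 1000.1 CPM, 1.26-fold lower (1.24 to 1.28).

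The lactate genes over 5 CPM split into a lower and a little-changed part. Ldha, which makes lactate, was at 1087 CPM with IL-15SA and 792 CPM with the combination, 1.37-fold lower (1.35 to 1.40). Slc16a3, the carrier known for lactate export from glycolytic cells, was at 41.2 and 25.9 CPM, 1.59-fold lower (1.44 to 1.75), and was the only glycolysis member past 1.5-fold (0.522% of all genes). No compared member was 1.5-fold higher (2.29% of all genes). Slc16a1, a carrier that moves lactate either way, was at 15.1 and 14.3 CPM with an interval that included 1. Ldhb, the isozyme that favours pyruvate, had 26 and 46 UMIs. Its ratio was 1.68 (1.02 to 2.84), but it was under the 5 CPM needed for a call.

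Of the hypoxia members Pdk1 and Pdk3, kinases that hold pyruvate back from the mitochondria, Pdk1 was called lower. Pdk1 was at 10.8 CPM with IL-15SA and 7.27 CPM with the combination, 1.48-fold lower (1.24 to 1.79). Pdk3 was at 37.0 and 29.6 CPM, 1.2-fold lower (1.14 to 1.37), just outside the threshold with 1 CPM added. Hif1a, the oxygen-regulated factor itself, was at 79.8 and 72.8 CPM, 1.10-fold lower (1.03 to 1.17). Egln1, the main prolyl hydroxylase, was at 6.85 and 7.60 CPM with an interval that included 1, and Egln3, a hydroxylase that is itself a target, had 19 and 27 UMIs.

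The mitophagy receptors Bnip3 and Bnip3l went in opposite directions. Bnip3 was at 44.0 CPM with IL-15SA and 32.1 CPM with the combination, 1.37-fold lower (1.255 to 1.497). Bnip3l was at 82.6 and 92.2 CPM, with a ratio of 1.12 (1.05 to 1.18). None of the 4 remaining targets was past the threshold. P4ha1, a collagen prolyl hydroxylase subunit, was at 56.5 and 53.7 CPM, and Mxi1, a MYC antagonist, at 16.2 and 16.8 CPM, both with intervals that included 1. Ddit4, an inhibitor of mTORC1 also raised by other stresses, was at 232 and 245 CPM, with a ratio of 1.06 (1.02 to 1.10). Ankrd37 was at 16.2 and 13.1 CPM, 1.24-fold lower (1.08 to 1.43), with an interval wholly below 1.

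Glycolysis transcripts per cell were fewer in the combination library at the 25th percentile and above it. Each cell was thinned to 1000 UMIs, which left out no cell. An Ncr1-positive cell then held a mean of 6.51 glycolysis UMIs (median 6) with IL-15SA and 5.21 (median 5) with the combination. The 10th percentile was 2 in both libraries, the 25th was 4 and 3, and the 90th was 11 and 9. Hypoxia UMIs averaged 0.574 and 0.573 per cell, and 59.6% and 59.7% of cells had none. After thinning, 58.0% of cells had an Ldha UMI with IL-15SA and 47.7% with the combination, against 86.5% and 74.6% before thinning. The shares in tumour-like cells, whose median depth was 1818 and 1875 UMIs, were 70.4% and 67.3% after thinning.

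**Figure D2:**
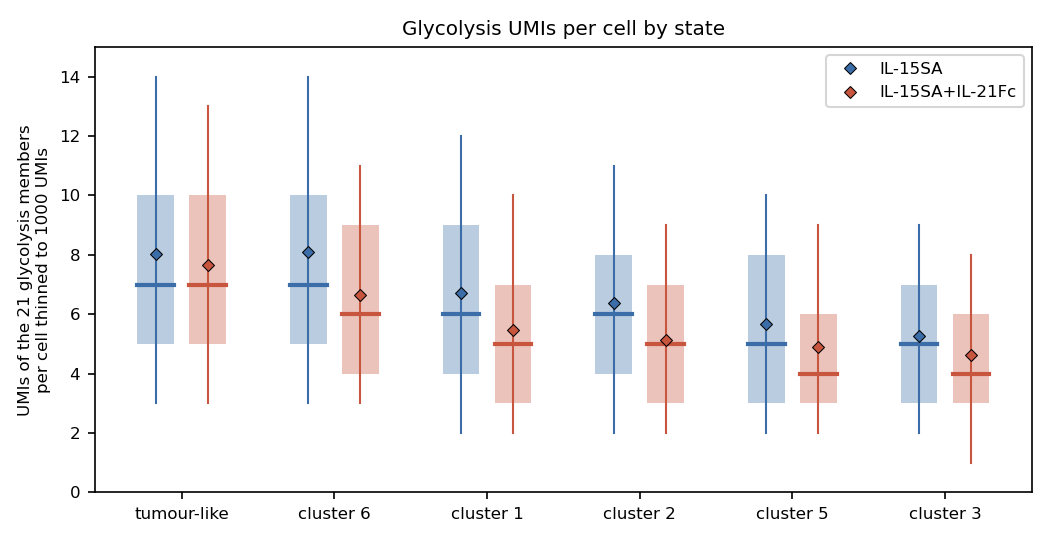
UMIs of the 21 glycolysis members per cell after thinning to 1000 UMIs (vertical axis), by cluster and library; boxes span the 25th to 75th percentile, whiskers the 10th to 90th, the line is the median and the diamond the mean. The combination mean and median are below those of IL-15SA in each of the 5 clusters of Ncr1-positive cells, while the medians of the tumour-like cells are both 7.

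The Ncr1-positive cells fell into 5 clusters large enough to compare. They were cluster 1, led by Ccl5, Klra7 and other Ly49 genes, with Cd3g among its leading genes; cluster 2, led by cell cycle genes such as Nusap1 and Rrm2; and cluster 3, led by Cd74 and Krt83, with the ILC1 markers Cxcr6 and Il7r. Cluster 5 was led by interferon-response genes such as Ifit2, and cluster 6 by Gzmg, Gzmd and Gzmf, with the basophil marker Mcpt8. Fcer1a and Ms4a2, of the same list of mast cell or basophil markers, had no UMI in the Ncr1-positive cells of either library. A further cluster of 46 and 43 cells was too small to compare. Cluster 6 held 639 cells with IL-15SA and 270 with the combination, and cluster 3 held 956 and 1937. Because leading genes of other cell classes occur in clusters 1, 3 and 6, clusters are given by number.

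The lower glycolysis level was present inside the clusters, whose cells were not matched on UMIs per cell. Median UMIs per cell were lower with the combination in each cluster, for example 2727.5 with IL-15SA and 2243 with the combination in cluster 1. Ldha, Pkm, Gapdh and Aldoa had intervals wholly below 1 in each of the 5 clusters, as did 0.881% of all genes, and Pfkl, Pfkp, Tpi1, Pgk1, Eno1 and Slc16a3 in 4 of 5 (2.87% of all genes had at least 4). These shares include genes with far fewer UMIs than Ldha, Pkm, Gapdh and Aldoa, whose wider intervals less easily exclude 1. The shares were not matched on level. Ldha was at 1055 CPM with IL-15SA and 782 CPM with the combination in cluster 1. It was at 1134 and 853 CPM in cluster 2, and at 831 and 699 CPM in cluster 3. In cluster 5 it was at 879 and 702 CPM, and in cluster 6 at 1350 and 915 CPM. The difference was smallest in cluster 3 (1.19-fold) and largest in cluster 6 (1.48-fold). Slc16a3 was between 1.21-fold (cluster 5, interval including 1) and 1.52-fold (cluster 2) lower. Without cluster 6 the median log2 ratio over the glycolysis members was -0.25, and 5 of them were lower by the rule, against 4.01% of all genes.

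The hypoxia members moved less evenly within clusters. Bnip3 was lower with an interval below 1 in clusters 1, 2 and 6, at 46.0 and 35.8, 38.1 and 27.3, and 73.3 and 48.7 CPM. In cluster 5 it was at 34.0 and 40.4 CPM on 30 and 67 UMIs. Pdk1 was lower in each cluster, with an interval below 1 in clusters 2 and 3. Ddit4 was higher in 4 of 5 clusters, with an interval above 1 in clusters 1 and 5. With each cluster given equal weight, the hypoxia median was 0.0064 and the log2 ratio of Bnip3 was -0.31, short of the threshold.

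Cluster 6, the granzyme cluster, had the highest glycolysis levels of the Ncr1-positive cells. Glycolysis members took 0.849% of its UMIs with IL-15SA and 0.699% with the combination, against 0.557% and 0.488% in cluster 3, the lowest. Against cluster 1, the largest, Eno1, Slc16a3, Pdk1, Bnip3 and Ankrd37 were higher by the same factor in cluster 6 in both libraries, as were 4.96% of all genes. Slc16a3 was 1.69-fold (1.425 to 2.001) higher with IL-15SA and 1.73-fold (1.26 to 2.33) with the combination. Ankrd37 was 1.90-fold (1.44 to 2.50) and 2.07-fold (1.35 to 3.07) higher. The Pdk1 intervals, 0.917 to 1.97 with IL-15SA and 0.738 to 2.72 with the combination, included 1. So did that of Bnip3 with the combination (0.999 to 1.82). Ldha had the order of clusters 6, 2, 1, 5 and 3 from high to low in both libraries. The median UMI count per cell was also higher in cluster 6, at 4171.5 and 3654 against 2639 and 2182 in cluster 1 (all barcodes of the cluster), and its part in these levels was not tested.

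**Figure D3:**
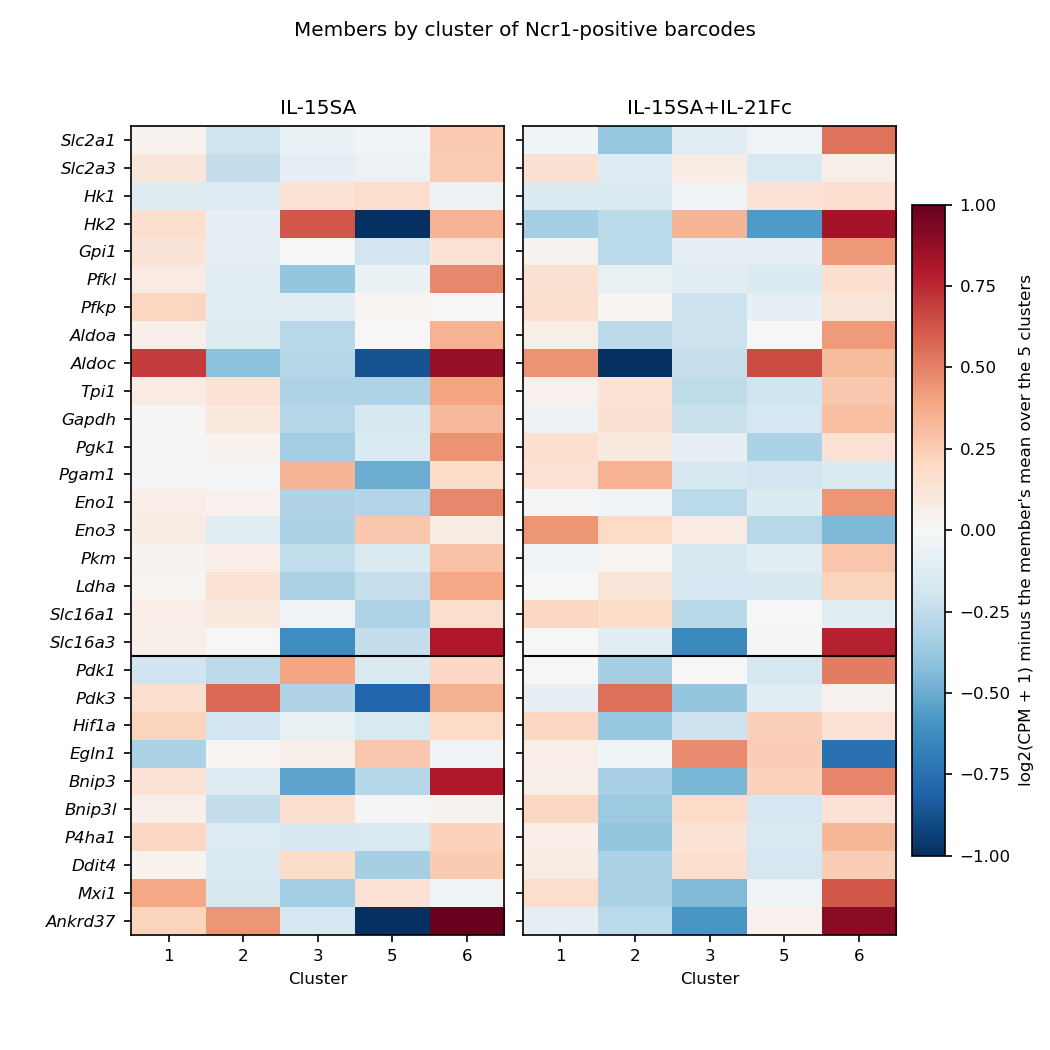
Level of the 29 members over 5 CPM in 5 clusters of Ncr1-positive cells, for each library, as log2(CPM + 1) minus the member's mean over the 5 clusters; the colour scale is limited to the range from -1 to 1. Most glycolysis members are high (red) in cluster 6 and low (blue) in cluster 3 in both libraries, with exceptions such as Hk2, which is not low in cluster 3.

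Cluster 3 lay on the other side for several of the same genes. Pfkp, Aldoc, Eno3, Slc16a3, Bnip3, Mxi1 and Ankrd37 were at 0.8 or less of their cluster 1 level in both libraries (2.72% of all genes). Slc16a3 was at 0.617 and 0.625 of its cluster 1 level and Bnip3 at 0.620 and 0.693. The intervals of Eno3 and Ankrd37 included 1 with IL-15SA. Hk2 and Egln1 were higher there (10.3% of all genes), Hk2 by 1.39-fold (1.01 to 1.90) and 1.66-fold (1.249 to 2.190). The Egln1 intervals, 0.781 to 2.23 with IL-15SA and 0.935 to 1.99 with the combination, included 1. Ldhb, though under the 5 CPM level over all Ncr1-positive cells, was also highest in cluster 3, at 3.48 and 5.36 CPM. In the cell cycle cluster 2, Aldoc, Hif1a, P4ha1 and Mxi1 were lower than in cluster 1 (7.06% of all genes) and Pdk3 was higher (16% of all genes). In cluster 5, Pgam1 alone was lower (6.54% of all genes) and no member was higher (6.56% of all genes). Pgam1 had 7 and 12 UMIs there. Its intervals against cluster 1, 0.274 to 1.48 with IL-15SA and 0.388 to 1.40 with the combination, included 1.

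In both libraries, 5 glycolysis members (Hk2, Pfkm, Pgam1, Eno3 and Slc16a1) and 3 hypoxia members (Egln1, Bnip3 and Mxi1) were at least 2-fold higher in tumour-like cells than in Ncr1-positive cells, against 17.9% of all 10167 genes compared. Slc2a3, Pfkp, Aldoc and Ddit4 were at least 2-fold lower (8.87% of all genes). Aldoc had only 5 UMIs with IL-15SA and 13 with the combination in tumour-like cells. Its ratio intervals, 0.088 to 0.642 and 0.175 to 0.580, reached past the 2-fold limit. Glycolysis members took 0.856% and 0.816% of the UMIs of tumour-like cells. Ncr1 was detected in 68.9% and 53.5% of these cells. In the 167 and 602 that had no Ncr1 UMI, 6 glycolysis and 4 hypoxia members were past 2-fold higher (18.8% of all genes). There 1 glycolysis and 2 hypoxia members were past 2-fold lower (11% of all genes). Pfkp, at a ratio of 0.508 with the combination, and Aldoc, at 0.556 with IL-15SA, no longer were.

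Eno3 had the largest of these ratios. It was at 146 CPM in tumour-like cells of the IL-15SA library and 152 CPM in those of the combination library, against 20.4 CPM in Ncr1-positive cells of each, a ratio of 7.18 (IL-15SA) and 7.45 (combination). Slc16a1 was at 85.4 and 103.9 CPM in tumour-like cells, 5.66 and 7.25 times its level in Ncr1-positive cells. Pfkm was at 20.7 and 23.4 CPM, 6.26 and 5.22 times, and Hk2 at 46.4 and 34.2 CPM, 3.29 and 2.57 times. Each of these 4 genes encodes one isoform of a step or carrier that has others among the members. Thinned to 1000 UMIs, 12.1% and 11.5% of tumour-like cells had an Eno3 UMI, against 1.91% and 1.79% of Ncr1-positive cells.

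Of the hypoxia members, Bnip3 was at 140 and 121 CPM in tumour-like cells, 3.19 and 3.78 times its level in Ncr1-positive cells. Egln1 was at 26.8 and 22.4 CPM (3.92 and 2.95 times) and Mxi1 at 47.0 and 55.9 CPM (2.896 and 3.326 times). Pdk1 was at 21.4 and 19.9 CPM, 1.98 and 2.74 times, and so past 2-fold in 1 library only. In the other direction, Slc2a3 was at 18.3 and 19.5 CPM, 3.39-fold and 3.40-fold lower than in Ncr1-positive cells. Ddit4 was at 75.04 and 87.90 CPM, 3.09-fold and 2.79-fold lower. Hif1a was at 47.0 and 33.5 CPM, 1.70-fold and 2.17-fold lower. This is the level of its transcript, and the activity of the factor was not tested. Egln3 had 0 UMIs in tumour-like cells of both libraries, which allows up to 1.83 CPM with IL-15SA and 0.739 CPM with the combination (3 counts of the total), and Ldhb had 0 and 1.

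**Figure D4:**
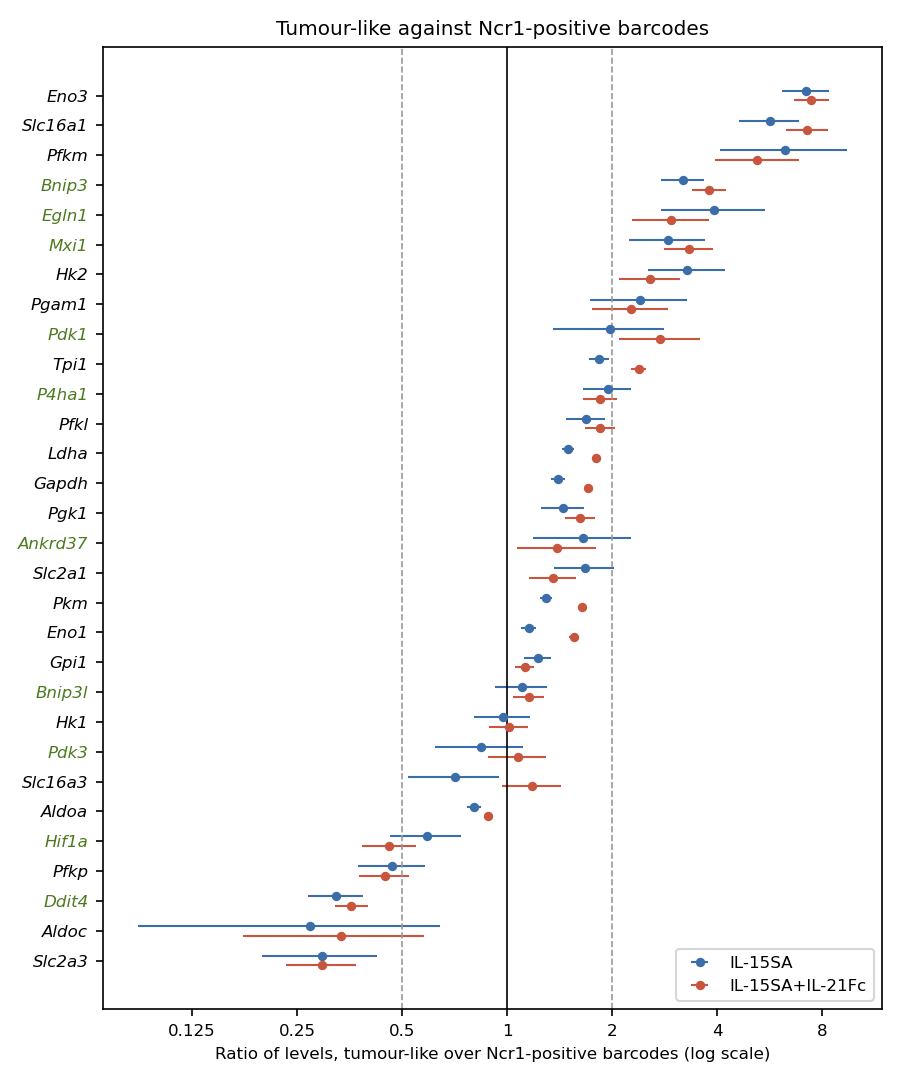
Ratio of the level in tumour-like cells to that in Ncr1-positive cells (log axis) for each member in both libraries, with 95% counting intervals; Ldhb and Egln3 are left out because they had 0 UMIs in at least 1 library. Dashed lines mark 2-fold, and hypoxia members are named in green. Eno3, Pfkm and Slc16a1 are furthest to the high side, and Slc2a3, Aldoc and Ddit4 to the low side, in both libraries.

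Within tumour-like cells the libraries were also compared, with no uniform direction among the abundant glycolysis genes. Ldha was at 1627 CPM with IL-15SA and 1425 CPM with the combination, a ratio of 0.876 (0.837 to 0.917), against 0.728 (0.716 to 0.741) in Ncr1-positive cells. Pkm was at 1633 and 1642 CPM and Gapdh at 1309 and 1324 CPM, both with intervals that included 1. Aldoa was at 1234 and 1099.6 CPM, with a ratio of 0.891 (0.845 to 0.939), and Eno1 at 977 and 1037 CPM, with a ratio of 1.06 (1.002 to 1.126). None of these 5 genes was past the threshold. Slc2a1 was at 68.3 and 47.8 CPM, with a ratio of 0.699 (0.551 to 0.890). Gpi1 (ratio 0.839), Pfkl (0.829), Pfkp (0.741), Hk2 (0.738) and Hif1a (0.713) also had intervals wholly below 1. That of Slc16a1 (ratio 1.22, 1.003 to 1.48) lay wholly above 1, like that of Eno1. In tumour-like cells without an Ncr1 UMI, glycolysis members took 0.922% of UMIs with IL-15SA and 0.834% with the combination. These comparisons rest on 1 library each, and the difference between the cell classes was not tested.

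Shares within isozyme families set the classes apart without the level of other genes. Of the UMIs of Slc2a1 and Slc2a3, Slc2a1 held 39.8% with IL-15SA and 34.9% with the combination in Ncr1-positive cells, and 78.9% and 71.1% in tumour-like cells. Of the lactate carriers, Slc16a1 held 26.8% (24.6 to 29.1) and 35.6% (32.8 to 38.5) in Ncr1-positive cells, and 74.5% and 77.3% in tumour-like cells. Pfkp held 53.7% and 53.8% of phosphofructokinase UMIs in Ncr1-positive cells and 22.8% and 20.2% in tumour-like cells. The Pfkp share differed between the libraries by less than its counting interval (52.4 to 55.0 with IL-15SA). Bnip3 held 34.7% (33.1 to 36.4) and 25.8% (24.4 to 27.3) of the UMIs of Bnip3 and Bnip3l in Ncr1-positive cells, and 60.7% and 53.3% in tumour-like cells. Hk2 held 15.1% and 16.2% of hexokinase UMIs, against 37.6% and 32.9% in tumour-like cells. Pdk1 held 22.6% and 19.7% of the Pdk1 and Pdk3 UMIs, against 40.7% and 38.6%.

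**Figure D5:**
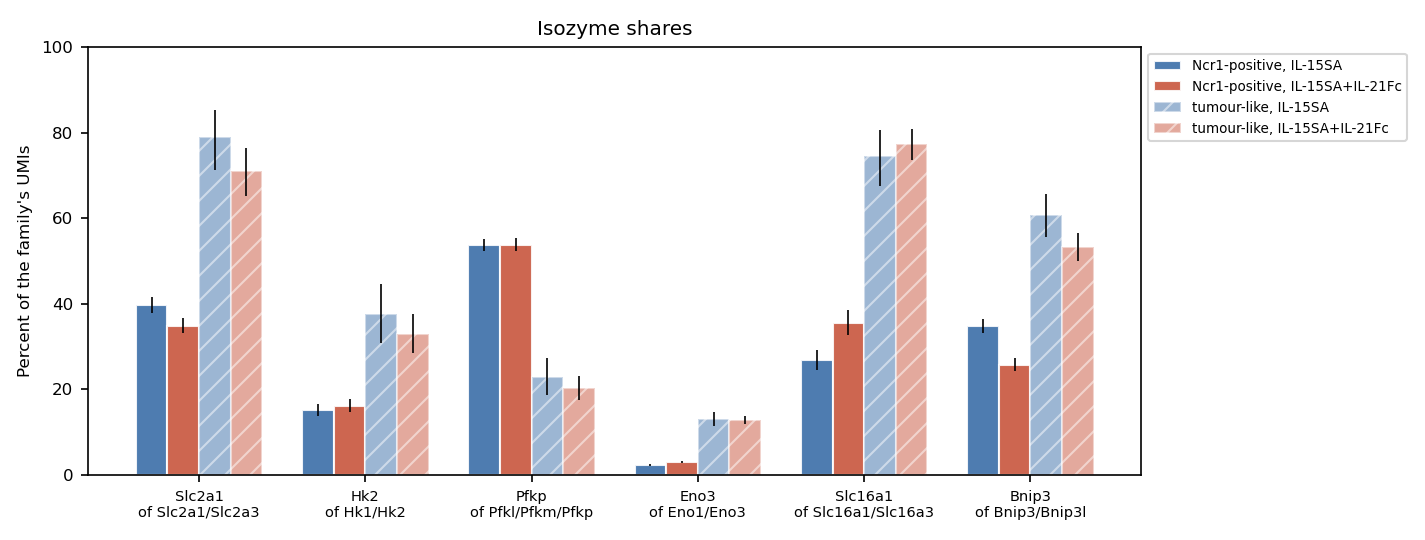
Share of a family's UMIs (percent) held by the named isozyme in Ncr1-positive and tumour-like cells of each library, with exact 95% binomial intervals. Slc2a1, Hk2, Eno3, Slc16a1 and Bnip3 take a larger share in tumour-like cells and Pfkp a smaller one, in both libraries.

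Other genes of the pathway were taken from lists made by function, and their counts stand beside the 4.4% of all genes that were lower and 8.64% that were higher. None of the 9 pentose phosphate genes and none of 8 measured genes of pyruvate entry into mitochondria was past the threshold in either direction. Of the 9 regulators of glycolysis over 5 CPM, Txnip and Arrdc4 were higher. Txnip, an arrestin that lowers glucose uptake, was at 45.7 CPM with IL-15SA and 65.4 CPM with the combination, a ratio of 1.43 (1.33 to 1.54), and its relative Arrdc4 at 11.4 and 15.9 CPM, with a ratio of 1.40 (1.20 to 1.62). Of 5 further isozymes over the level, Slc2a6 was higher, at 7.452 and 14.98 CPM. Of 9 regulators of the hypoxia-inducible factor, Cul2, a scaffold of the VHL ligase, was lower, at 25.1 and 19.4 CPM.

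A longer list of 29 measured hypoxia targets held 4 that were lower and 1 that was higher, against 4.4% and 8.64% of all genes. Ndrg1 was at 24.7 CPM with IL-15SA and 16.9 CPM with the combination, Fam162a at 184 and 129 CPM, and Ero1l, which oxidises proteins in the endoplasmic reticulum, at 38.0 and 27.0 CPM. The other lower gene was Pgm2, named after its values were seen. Rora was the higher gene, at 18.0 and 23.8 CPM. The list median was 0.049 on the log2 scale. In tumour-like cells 11 genes of this list were at least 2-fold higher than in Ncr1-positive cells in both libraries (17.9% of all genes) and none was lower (8.87%). Among them was Hmox1, which breaks down heme, at 30.5 and 21.9 CPM against 3.88 and 3.55 CPM.

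Several members have near-identical copies or overlapping neighbours, and the sources used here do not state the strand setting of the counting. Gapdh has 91 other genes with a near-identical transcript, whose UMIs came to 1.41% and 1.34% of its own. Eno1 has 4, mainly Eno1b, at 3.504% and 3.529%, and with all copies added both ratios between libraries stayed within their intervals. Pfkm overlaps Senp1 on the opposite strand (638 and 701 UMIs against its own 88 and 125). Ankrd37 overlaps Ufsp2 (1005 and 1023 UMIs against 431 and 365), so the levels of Pfkm and Ankrd37 are uncertain. Other members overlap neighbours that have fewer UMIs than they do. Among them, Pfkp overlaps Pitrm1 on the opposite strand (696 and 610 UMIs against 2978 and 2438). Hif1a overlaps Gm15283 on the opposite strand (427 and 455 UMIs against 2120 and 2032) and AC124712.1 on the same strand (24 and 41 UMIs).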

How the data were processed

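Single-cell RNA-seq counts of 2 libraries of sorted tumour-infiltrating cells were used, 1 per treatment. The deposited matrices hold raw counts of UMIs for each gene and barcode. The submitters' processing notes name cutadapt, featureCounts, Seurat 4, Scanpy and the build mm10, and the labels' protocols name a microwell single-cell kit; the sources used here do not state the strand setting or the annotation. The deposited counts were read with scanpy 1.11.5 under Python 3.11.15. Barcodes with under 200 genes or over 20% mitochondrial UMIs were removed (0 and 5). Scrublet's automatic threshold marked 2 and 1 barcodes, so the 5% of barcodes with the highest scores in each library were removed (419 and 622), leaving 7967 and 11808. Cells were clustered (Leiden, resolution 0.5, 2000 variable genes, 30 components, 15 neighbours) with the members and the other pathway lists left out of the variable genes; 2 of the 32 members would otherwise have been variable. Clusters were classed from marker lists, and their names may differ from those of the submitters.

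Counts were summed per library and class and scaled to CPM, a total of 1000000. The threshold was a ratio of 0.8 or its inverse between libraries or clusters and 2-fold between classes in both libraries, with 1 CPM added and at least 5 CPM in 1 of the values compared. Levels have exact Poisson intervals, ratios exact conditional binomial intervals and shares exact Clopper-Pearson binomial intervals, all at 95%. No p-value is given, since each group is 1 sample and cells are not replicates. The call of a ratio and its interval were tested on simulated counts drawn with counting error only. Filtering, doublet removal and clustering were not part of that test. Each member is named; of other lists, up to 4 genes past a threshold with the largest folds, and the leading genes of clusters. A gene of these lists is not reported here. The Aldoa symbol stands for 2 gene IDs, and the protein-coding one was used. Members and lists were chosen with earlier results of these data known. Promoter windows came from RefSeq. The alternatives tried were other sets of cells, scalings, added counts, expression minimums, folds and clusterings.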

Additional observations from a re-analysis of the deposited data

Results flagged for a closer look

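Aldoc and Ankrd37 differed between libraries in opposite directions in clusters 2 and 5, with counting intervals on opposite sides of no change; the difference between the clusters was not tested. The log2 ratio of Aldoc, combination over IL-15SA, was -0.72 in cluster 2 (64 and 32 UMIs) and 1.59 in cluster 5 (4 and 26 UMIs). That of Ankrd37 was -0.48 in cluster 2 (164 and 104 UMIs) and 1.87 in cluster 5 (3 and 25 UMIs). Both cluster 5 values rest on very few UMIs in the IL-15SA library, and 281 cells of that library were in the cluster. Ankrd37 shares its position with Ufsp2 on the opposite strand.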

How the results depend on the processing

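The counts of 7 and 0 glycolysis and 2 and 0 hypoxia members called lower and higher (ratio of 0.8 or its inverse) were recomputed under 17 alternatives. Cells matched on UMIs gave 3 lower glycolysis members. All Ncr1-positive barcodes, tumour-like ones included, gave 1 higher glycolysis and 1 lower hypoxia member. A minimum of 20 CPM gave 1 lower hypoxia member, and no minimum gave 2 higher glycolysis members. A threshold of 1.5-fold left 1 lower glycolysis and 0 lower hypoxia members. Giving clusters the same weight, an alternative chosen after seeing the data, left 1 lower hypoxia member. For tumour-like against Ncr1-positive cells, 1.5-fold gave 5 higher hypoxia members in place of 3. The causes were not tested, apart from the stricter or looser rules themselves. The counts of members at least 2-fold lower in tumour-like cells, 3 glycolysis and 1 hypoxia, became 1 and 2 in tumour-like cells without Ncr1, and the hypoxia count also became 2 at resolution 1 and at 1.5-fold. The other counts between libraries and of members higher in tumour-like cells stayed within 1.5 times under these alternatives. Of 456 values of single members over the alternatives, 416 moved by less than the counting interval, 40 moved by more and 0 reversed a called direction; Ankrd37, Aldoc, P4ha1, Hk2, Slc16a1, Eno3, Egln1 and Mxi1 had values on both sides of 0. Only 1 cluster was tumour-like, so keeping the one with the fewest NK transcripts gave no other value. No paired analysis was possible because a lone library stood on either side, with no replicate numbers to match. Members with few UMIs, such as Pdk1, Egln1, Aldoc and Pgam1, have wide intervals, and Pfkm, Ldhb and Egln3 were too shallow to compare between libraries.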
